A study of Mus musculus with 11 samples.

Results

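The genes described here make, carry, sense and break down retinoic acid, the active acid form of vitamin A. They were taken by symbol from the tables of sorted mouse kidney cells and number 9 of 24427 genes: Aldh1a1, Aldh1a2 and Aldh1a3 (synthesis), Rara, Rarb and Rarg (nuclear receptors), Cyp26b1 (breakdown), and Crabp1 and Crabp2 (binding proteins). The cells were sorted from kidneys of CFW mice, an outbred stock, before their mRNA was sequenced. In the comparison within the embryo, at E16.5, a stage counted in days of gestation, Six2+ cells (n = 3) were set against Six2- cells (n = 3), both from kidneys of the genotype Six2TGC/+, a transgene in which Six2 control sequence drives the reporter. In the other comparison, Six2+ cells from Six2TGC/+ kidneys at postnatal day 2 (P2; n = 2) were set against Cited1+ cells from E16.5 kidneys of the genotype Cited1tagRFP/+ (n = 3). Six2 marks the progenitors of the nephron in the cap mesenchyme, Cited1 marks the least committed of them, and the Six2- sort holds kidney cells outside the Six2+ sort. Markers of other kidney cells were also present in the Cited1+ libraries, as given below.

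Retinal dehydrogenases, the Aldh1a enzymes, oxidise retinal to retinoic acid. Inside the cell the acid is carried by Crabp proteins, binds receptors that pair with retinoid X receptors on DNA, and is oxidised for removal by Cyp26 enzymes. In the embryonic mouse kidney, stromal cells with Aldh1a2 are known as a source of retinoic acid, and receptors in the stroma and the ureteric bud are known to maintain Ret and branching of the bud.

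Values are in RPKM, reads scaled by transcript length and library size, and a fold change is a difference of mean log2(RPKM + 1) given with its SE, which understates the change of low genes. From the steps between low values, depth was estimated at about 16500000 to 44000000 reads per library. At these depths 56.4% to 68.0% of low values fell on whole reads, against 10% by chance, and multiples of a depth can fit too. Genes with a mean of at least 1 were tested with limma over all genes, and a gene rose or fell where its Benjamini-Hochberg adjusted p was below 0.05. Levels of a group are its mean ± SD. No label says that replicate libraries were drawn from different animals, and the p-values therefore rest on a spread between libraries that could be technical. At E16.5 Six2 followed the labels of the sort, at 340 RPKM in Six2+ and 7.53 RPKM in Six2- cells. In the other comparison Cited1 stood at 3.76 RPKM in P2 Six2+ and 201 RPKM in Cited1+ cells. Six2 itself was lower in P2 Six2+ (137 RPKM) than in Cited1+ cells (313 RPKM), by 1.17 on the log2 scale (limma adjusted p = 0.00203). Six2- replicate 3 held more Six2 (16.98 RPKM) than the other libraries of its group (2.72 and 2.91 RPKM).

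At E16.5, 4 of the 8 retinoic acid genes tested fell in Six2+ relative to Six2- cells and 0 rose. They were the receptors Rarb and Rarg, the breakdown enzyme Cyp26b1 and the binding protein Crabp1. Over all genes tested, 38.6% were called, 18.1% lower and 20.5% higher in Six2+ cells. The median difference was -1.0 over the 8 genes and 0.12 over all genes tested. Aldh1a1 was below the filter, and Cyp26b1 passed it only through its level in Six2- cells, so its direction was set in advance. Between P2 Six2+ and E16.5 Cited1+ cells, 7 of the 9 genes were tested, Aldh1a2 rose and Crabp2 fell. There 29.0% of all genes were called, 12.7% higher and 16.3% lower in P2 Six2+ cells, and the median difference was 0.19 over the 7 genes and -0.07 over all. Stage, sort marker and reporter line differ together in that comparison and cannot be told apart.

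**Figure D1:**
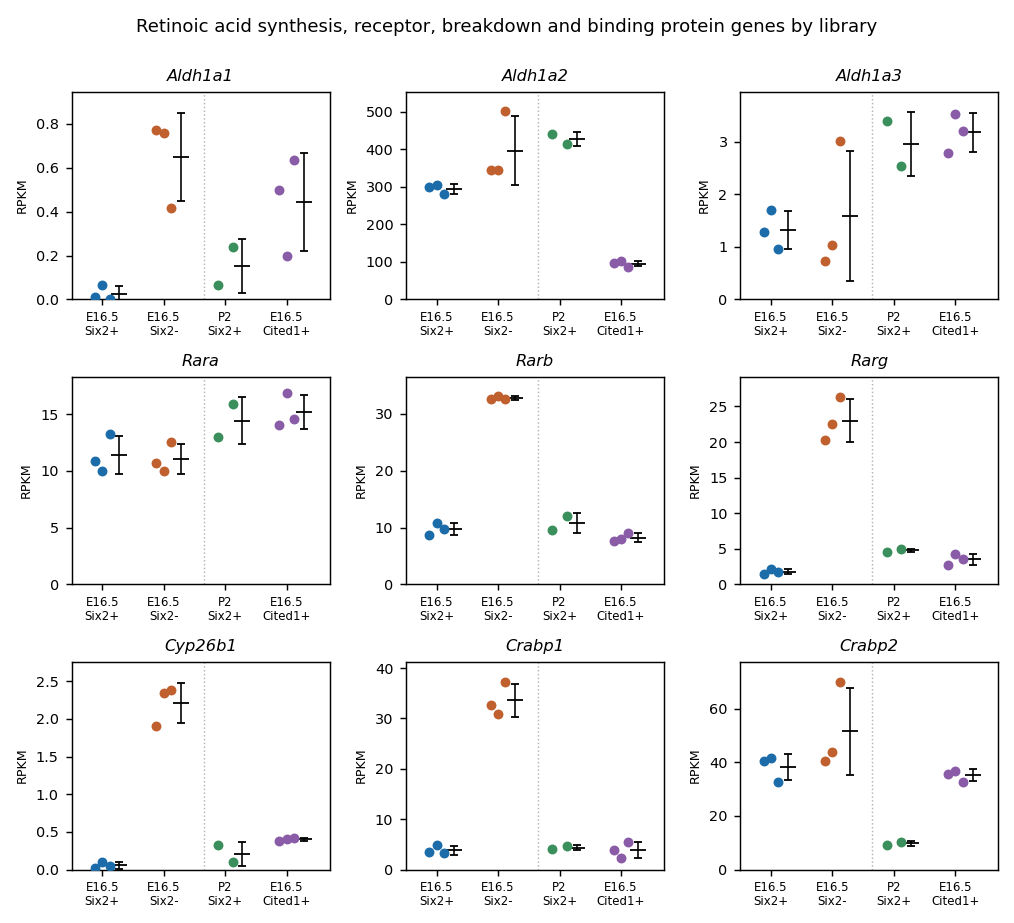
RPKM of the 9 retinoic acid genes in each of the 11 libraries (points), with group mean and SD (bars), on linear axes from 0; the dotted line separates the deposited tables. Rarb, Rarg, Cyp26b1 and Crabp1 are high in the Six2- libraries, Aldh1a2 is lowest in the Cited1+ libraries (87.8 to 102 RPKM), and Crabp2 is lowest in the P2 libraries (9.11 and 10.45 RPKM).

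Aldh1a2, the retinal dehydrogenase of early embryonic tissues, lies on chromosome 9 from 71215789 to 71296243 in GRCm38 (also called mm10), as RefSeq places it. It was the most abundant of the 9 genes in all 4 groups. It read 300.5, 306 and 281 RPKM in E16.5 Six2+ libraries, and 344, 345 and 502 RPKM in Six2- libraries. The ranges did not overlap, as for 51.9% of all genes tested, but the wide spread in Six2- cells came from replicate 3. The difference was -0.40 (SE 0.19) and did not pass (limma adjusted p = 0.12). Without that library it was -0.22 (adjusted p = 0.36). It passed narrowly once all libraries were scaled to a common total (-0.48, adjusted p = 0.0494), against 0.0889 with replicate number as a block. Among all 24427 genes Aldh1a2 ranked 148 to 179 in Six2+ and 105 to 148 in Six2- libraries.

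In the other comparison, Aldh1a2 read 441 and 415 RPKM in P2 Six2+ libraries, and 96.8, 102 and 87.8 RPKM in E16.5 Cited1+ libraries. Both P2 libraries stood far above all 3 Cited1+ libraries, a ratio of means of 4.48. The difference was 2.15 (SE 0.11, limma adjusted p = 3.3e-05), and it ran from 2.10 to 2.35 over the alternatives tried. Its rank was 81 and 91 in P2 Six2+ libraries and 454 to 534 in Cited1+ libraries.

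Beside this rise, markers of early nephron structures moved too. Of the 7 listed (Wnt4, Lhx1, Pax8, Jag1, Fgf8, Lef1 and Ccnd1), 6 rose in P2 Six2+ cells, and their summed level was 961 to 992 RPKM, against 104 to 112 RPKM in Cited1+ cells. Of the 8 nephron progenitor markers, 7 fell, with sums of 442 to 445 RPKM in P2 Six2+ and 1139 to 1243 RPKM in Cited1+ cells. Of the 9 stromal markers, 8 were tested, 7 fell and 1 rose. All 9 summed to 42.2 to 46.3 RPKM in P2 Six2+ and 119.3 to 129.6 RPKM in Cited1+ cells. Of the 11 ureteric bud and collecting duct markers, 8 were tested and 6 fell. All 11 summed to 21.4 to 29.1 RPKM in P2 Six2+ and 72.0 to 102.5 RPKM in Cited1+ cells. Of 7 macrophage and leukocyte markers, the 4 tested rose (15.8 to 16.8 RPKM in P2 Six2+ and 2.96 to 3.75 RPKM in Cited1+ cells). Of the 4 podocyte markers, 3 were tested and Podxl rose (15.25 to 25.4 RPKM in P2 Six2+ and 4.92 to 9.75 RPKM in Cited1+ cells). Of 4 erythroid markers, the 2 tested fell (15.7 to 30.3 RPKM in P2 Six2+ and 62.1 to 94.8 RPKM in Cited1+ cells). Of 5 proximal tubule markers, 4 were tested and 2 fell (5.26 to 10.6 RPKM in P2 Six2+ and 13.3 to 16.05 RPKM in Cited1+ cells). Of the 4 neural and glial markers, 2 were tested and 1 fell. All 4 summed to 9.33 to 10.05 RPKM in P2 Six2+ and 13.8 to 19.1 RPKM in Cited1+ cells. No endothelial marker was called among the 3 of 6 tested (3.59 to 6.02 RPKM in P2 Six2+ and 4.65 to 15.5 RPKM in Cited1+ cells). Of all these markers the glial gene Sox10 was at 0 throughout a group, P2 Six2+. The 4 macrophage and leukocyte markers that rose averaged below 1 RPKM in Cited1+ cells. They passed the filter only through their P2 level, as did Lef1, so their direction was set in advance. Among the markers that fell, Dcn, Aqp2 and Hnf4a passed it only through their level in Cited1+ cells. Over all genes tested, 12.7% rose and 16.3% fell in P2 Six2+ cells. The part of these markers in the levels of Aldh1a2 and Crabp2 was not tested. Six2- libraries were not tested against Cited1+ libraries. Their ureteric bud and collecting duct sums (29.8 to 49.5 RPKM) and proximal tubule sums (8.01 to 11.2 RPKM) were below those of Cited1+ libraries. Stromal, endothelial, macrophage and leukocyte, erythroid, podocyte and early nephron sums were higher in Six2- than in Cited1+ libraries, and neural and glial sums overlapped. In bulk samples, fewer cells of a type and less RNA per cell cannot be told apart.

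Aldh1a1 and Aldh1a3, the other retinal dehydrogenases, were scarce. Aldh1a1 (chromosome 19, 20492583 to 20643463) read 0.0117, 0.0637 and 0 RPKM in Six2+ libraries, and 0.771, 0.759 and 0.418 RPKM in Six2- libraries at E16.5. It was too low to be tested with the filter. Without a filter the difference was -0.68 (limma adjusted p = 0.00312). It averaged 0.151 ± 0.123 RPKM in P2 Six2+ cells and 0.444 ± 0.223 RPKM in Cited1+ cells, with overlapping ranges.

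Aldh1a3 (chromosome 7, 66390892 to 66427477) averaged 1.32 ± 0.366 RPKM in Six2+ and 1.59 ± 1.23 RPKM in Six2- cells at E16.5. The groups overlapped, and Six2- replicate 3 alone reached 3.01 RPKM. The difference of -0.07 (SE 0.30) did not pass (limma adjusted p = 0.864), and it was 0.29 without that library. Aldh1a3 averaged 2.97 ± 0.608 RPKM in P2 Six2+ and 3.18 ± 0.369 RPKM in Cited1+ cells (-0.08, SE 0.16, adjusted p = 0.726). Of the summed Aldh1a RPKM, which corrects for transcript length, Aldh1a2 made up 99.55% in Six2+, 99.46% in Six2-, 99.3% in P2 Six2+ and 96.3% in Cited1+ cells. The share in Cited1+ libraries ran from 95.8% to 96.7% and did not overlap that in P2 libraries, which ran from 99.2% to 99.3%. With 2 against 3 libraries an exact two-sided permutation test cannot go below p = 0.2, the value found.

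Of the receptors, Rarb and Rarg fell in Six2+ cells at E16.5 and Rara did not pass the test. All of them bind retinoic acid and act on DNA with a retinoid X receptor. Rarb is also a textbook target of the pathway: retinoic acid induces its shorter transcript through a response element close to the start, a direct repeat of a hexamer with a spacer of 5 bases (DR5). RefSeq promoter windows in GRCm38.p6, from 250 bases before to 50 bases after the start, were found for 7 of the 9 genes (12 windows). They were searched on both strands for 2 hexamers in the same orientation, each of them AGGTCA or one of its variants AGTTCA, also GGGTCA, and finally GGTTCA, with a 5-base or a 2-base spacer (DR2).

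A DR5 match lay in the window of Rarb and in none of the other 11 windows, and DR2 gave 0 matches. Of all 32851 windows, 0.0974% held a DR5 and 0.268% a DR2 match. Among 33 other retinoid pathway and response genes (24 with a window), Cyp26a1, a breakdown enzyme also known to be induced by retinoic acid, held a DR5 match. The 120 bases before the start of each are shown because Rarb and Cyp26a1 carry this repeat yet differ in level here; capitals mark the match. The Rarb sequence is chr14:16575477-16575596 on the minus strand, inside the gene at the start of a shorter transcript, with the match beginning 53 bases before the start. The Cyp26a1 sequence is chr19:37697688-37697807 on the plus strand, where the match reads on the opposite strand. A match is a description of these letters and not evidence of binding.
Rarb: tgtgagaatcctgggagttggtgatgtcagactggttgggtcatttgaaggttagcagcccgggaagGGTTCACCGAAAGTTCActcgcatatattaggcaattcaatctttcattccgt
Cyp26a1: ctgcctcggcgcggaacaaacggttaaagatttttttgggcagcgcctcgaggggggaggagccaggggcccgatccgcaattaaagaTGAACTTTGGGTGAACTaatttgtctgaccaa

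Rarb (chromosome 14, 16430839 to 17082331) read 8.68, 10.7 and 9.755 RPKM in E16.5 Six2+ libraries, and 32.5, 33.1 and 32.6 RPKM in Six2- libraries. The Six2- libraries lay within 1 RPKM of each other, and all stood above every Six2+ library. Rarb fell by 1.66 on the log2 scale in Six2+ cells (SE 0.12, limma adjusted p = 9.49e-06), with a mean 3.37-fold higher in Six2- cells. In the other comparison Rarb read 9.49 and 12.1 RPKM in P2 Six2+ libraries, and 7.59, 7.98 and 9.065 RPKM in Cited1+ libraries. The ranges did not overlap, as for 58.5% of all genes tested there, and the difference of 0.35 (SE 0.14) did not pass (limma adjusted p = 0.10). Cyp26a1, whose promoter also holds the repeat, was at 0 to 0.153 RPKM in all 11 libraries and was not tested.

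Rarg (chromosome 15, 102234938 to 102257522) read 1.47, 2.13 and 1.76 RPKM in E16.5 Six2+ libraries, and 20.2, 22.5 and 26.3 RPKM in Six2- libraries. Of the 9 genes it had the largest tested difference of log2(RPKM + 1) between these groups, -3.10 (SE 0.15, limma adjusted p = 1.11e-06). Its mean was 12.8-fold higher in Six2- cells. With a pseudocount of 0.1 the difference was -3.92 for Cyp26b1, beyond any found for Rarg (-3.62 to -3.01 over the alternatives). Rarg read 4.60 and 4.95 RPKM in P2 Six2+ libraries, and 2.76, 4.27 and 3.56 RPKM in Cited1+ libraries. All P2 values were above the Cited1+ values, but the difference of 0.36 (SE 0.17) did not pass (limma adjusted p = 0.147). Without Cited1+ replicate 2, its highest Cited1+ library, the difference was 0.48 and passed (adjusted p = 0.0468).

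Rara (chromosome 11, 98927800 to 98974942) had similar means on both sides of the sort. It read 10.9, 10.03 and 13.3 RPKM in E16.5 Six2+ libraries, and 10.7, 9.96 and 12.55 RPKM in Six2- libraries. The groups overlapped over nearly their whole range, with a difference of 0.04 (SE 0.15, limma adjusted p = 0.869). It averaged 14.4 ± 2.06 RPKM in P2 Six2+ and 15.2 ± 1.51 RPKM in Cited1+ cells, again overlapping (-0.07, SE 0.13, adjusted p = 0.704).

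As a share of the summed receptor RPKM, Rara made up 49.7% ± 5.18 in Six2+ and 16.54% ± 1.23 in Six2- cells at E16.5. Rarg made up 7.81% ± 1.30 in Six2+ and 34.3% ± 2.46 in Six2- cells. Neither share overlapped between the groups (exact two-sided permutation p = 0.1, the smallest that 3 against 3 libraries taken as unpaired can give). Rarb was the middle case, at 42.5% ± 3.92 in Six2+ and 49.1% ± 3.07 in Six2- cells, with overlapping ranges (exact permutation p = 0.2). The receptor sum itself was 22.9 ± 1.89 RPKM in Six2+ and 66.8 ± 4.11 RPKM in Six2- cells. In P2 Six2+ cells the shares of Rara, Rarb and Rarg were 48.1%, 35.9% and 16.02%, against 56.4%, 30.6% and 13.0% in Cited1+ cells. The ranges of these shares did not overlap, with the smallest p that 2 against 3 libraries allow (exact permutation p = 0.2 for each).

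**Figure D2:**
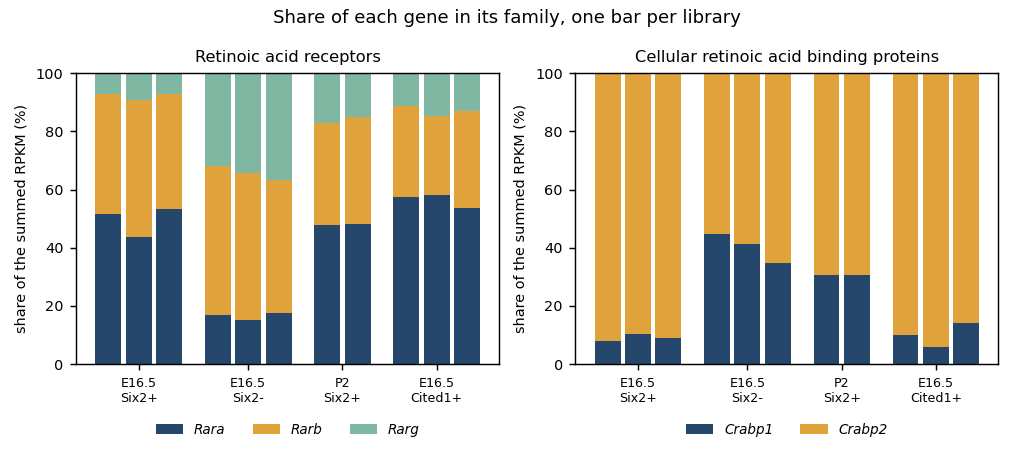
Share of each gene in the summed RPKM of the retinoic acid receptors (left) and of the Crabp proteins (right), in percent, with a stacked bar per library. Rara takes 43.8% to 53.5% of the receptor sum in Six2+ and 15.2% to 17.6% in Six2- libraries, and Crabp2 takes 69.2% of the Crabp sum in both P2 libraries and 85.8% to 94.2% in Cited1+ libraries.

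Cyp26b1 (chromosome 6, 84571414 to 84593908), which oxidises retinoic acid for removal, was low in every group. It read 0.0196, 0.1015 and 0.0458 RPKM in E16.5 Six2+ libraries, and 1.90, 2.34 and 2.39 RPKM in Six2- libraries. The ranges did not overlap, as for 51.9% of all genes tested, with every Six2- library above every Six2+ library. The difference was -1.60 (SE 0.15, limma adjusted p = 4.2e-05). The gene passed the filter only through its level in Six2- cells, so its direction was set in advance. At such levels the pseudocount sets the size: with 0.1 in place of 1 the difference was -3.92. Without any single Six2- library the gene fell below the filter. Cyp26b1 read 0.322 and 0.0995 RPKM in P2 Six2+ libraries, and 0.381, 0.4003 and 0.420 RPKM in Cited1+ libraries, too low to be tested with the filter. Without a filter the difference of -0.22 did not pass (adjusted p = 0.224).

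Of the 2 binding proteins, Crabp1 fell in Six2+ cells at E16.5 and Crabp2 fell in P2 Six2+ cells. Crabp1 (chromosome 9, 54764748 to 54773110) read 3.46, 4.84 and 3.20 RPKM in E16.5 Six2+ libraries, and 32.7, 30.9 and 37.2 RPKM in Six2- libraries. The groups were far apart, with a difference of -2.85 (SE 0.16, limma adjusted p = 2.04e-06) and a mean 8.76-fold higher in Six2- cells. It averaged 4.36 ± 0.427 RPKM in P2 Six2+ and 3.88 ± 1.58 RPKM in Cited1+ cells, where the ranges overlapped (0.19, SE 0.27, adjusted p = 0.622).

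Crabp2 (chromosome 3, 87948693 to 87953372), which hands retinoic acid to the receptors in the nucleus, read 40.6, 41.7 and 32.7 RPKM in E16.5 Six2+ libraries, and 40.65, 43.9 and 70.1 RPKM in Six2- libraries. The ranges overlapped, replicate 3 was the high Six2- library, and the difference of -0.38 (SE 0.21) did not pass (limma adjusted p = 0.175; -0.14 without that library). Crabp2 read 9.11 and 10.45 RPKM in P2 Six2+ libraries, and 35.9, 36.9 and 32.7 RPKM in Cited1+ libraries. It fell by 1.75 on the log2 scale in P2 Six2+ cells (SE 0.11, limma adjusted p = 7.23e-05), with a mean 3.595-fold higher in Cited1+ cells. Crabp2 made up 90.9% ± 1.28 of the Crabp sum in Six2+ and 59.8% ± 5.08 in Six2- cells at E16.5, and 69.2% in P2 Six2+ and 90.0% ± 4.21 in Cited1+ cells. Neither pair overlapped (exact permutation p = 0.1 and 0.2, the smallest possible).

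**Figure D3:**
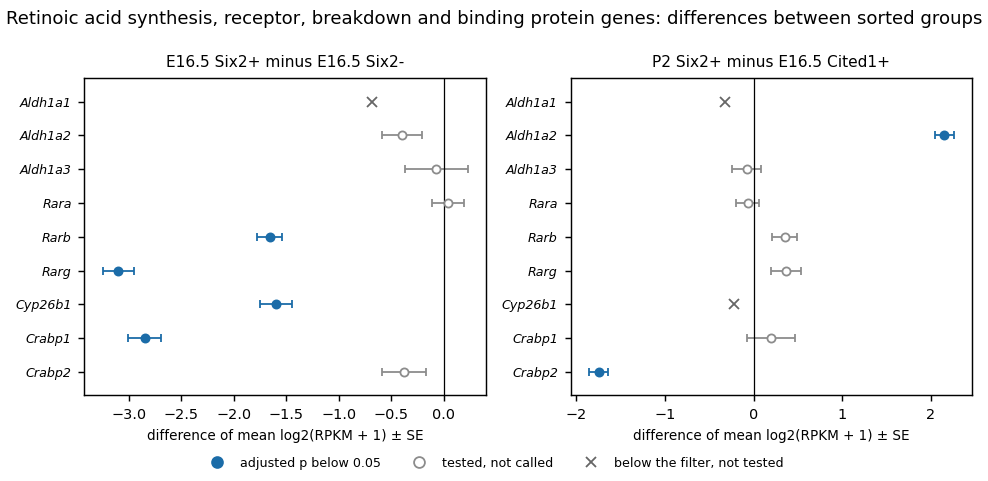
Difference of mean log2(RPKM + 1) with its SE for the 9 genes, in E16.5 Six2+ minus Six2- cells (left) and P2 Six2+ minus E16.5 Cited1+ cells (right); filled points passed the test, open points did not, and crosses were below the filter. Left, Rarg (-3.10), Crabp1 (-2.85), Rarb (-1.66) and Cyp26b1 (-1.60) fell; right, Aldh1a2 (2.15) rose and Crabp2 (-1.75) fell.

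The fall of Rarb, Rarg, Cyp26b1 and Crabp1 in E16.5 Six2+ cells stood beside large differences in markers of other kidney cells. All 9 stromal markers fell, with a summed level of 56.1 to 76.8 RPKM in Six2+ and 2247 to 3356 RPKM in Six2- cells. All 6 endothelial markers fell (0.431 to 2.77 RPKM in Six2+ and 37.8 to 69.8 RPKM in Six2- cells). Of 7 macrophage and leukocyte markers, the 6 tested fell (0.248 to 3.16 RPKM in Six2+ and 66.1 to 90.3 RPKM in Six2- cells). Of 4 erythroid markers, the 3 tested fell (7.39 to 30.4 RPKM in Six2+ and 495 to 5269 RPKM in Six2- cells). Podocyte markers fell in 4 of 4 (1.02 to 1.23 RPKM in Six2+ and 14.7 to 68.8 RPKM in Six2- cells). Of 11 ureteric bud markers, 6 were tested and 5 fell (6.69 to 11.4 RPKM in Six2+ and 29.8 to 49.5 RPKM in Six2- cells). Of 5 proximal tubule markers, the 3 tested fell (1.59 to 1.85 RPKM in Six2+ and 8.01 to 11.2 RPKM in Six2- cells). Of 4 neural and glial markers, 3 were tested. Of these 2 rose and 1 fell (5.66 to 6.96 RPKM in Six2+ and 4.53 to 23.2 RPKM in Six2- cells). Early nephron markers also moved both ways, with 2 of 7 higher and 2 lower (166.5 to 188.6 RPKM in Six2+ and 120.2 to 147.4 RPKM in Six2- cells), and 7 of 8 nephron progenitor markers rose (995 to 1091 RPKM in Six2+ and 44.2 to 76.7 RPKM in Six2- cells). Each endothelial, podocyte and tested macrophage and leukocyte marker averaged below 1 RPKM in Six2+ cells. These passed the filter only through their level in Six2- cells, so their direction was set in advance. The same held for Pdgfra, Lum, Alas2, Gata3, Calb1, Cdh1, Hnf4a, Slc34a1 and Stmn2, and for Elavl4 through Six2+ cells. Over all genes tested, 18.1% fell and 20.5% rose. No marker of these lists was at 0 throughout either group. The part of these markers in the levels of the 4 genes was not tested.

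Set side by side across all 4 groups, with no test since they stand in separate tables, the levels fell into different orders. Within the tables, ranges did not overlap for 51.9% (E16.5) and 58.5% (P2 Six2+ and Cited1+) of all genes tested. No such share was computed across the tables, so the overlaps below are descriptions of these libraries only. Rarb, Rarg and Crabp1 were highest in Six2- cells, apart from the next group, P2 Six2+, beyond the range of the libraries. Below that, Rarb in P2 Six2+, Six2+ and Cited1+ cells (10.8, 9.73 and 8.21 RPKM) and Crabp1 in P2 Six2+, Cited1+ and Six2+ cells (4.36, 3.88 and 3.84 RPKM) overlapped from neighbour to neighbour. Rarg kept non-overlapping steps, at 23.0, 4.77, 3.53 and 1.79 RPKM in Six2-, P2 Six2+, Cited1+ and Six2+ cells. Its step between P2 Six2+ and Cited1+ cells had not passed the test (limma adjusted p = 0.147).

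Cyp26b1 ran from Six2- (2.21 RPKM) over Cited1+ (0.401 RPKM) to P2 Six2+ and Six2+ cells (0.211 and 0.0556 RPKM), of which the last pair overlapped. Aldh1a2 was highest in P2 Six2+ and Six2- cells (428 ± 18.3 and 397 ± 90.8 RPKM, overlapping), then lower in Six2+ cells (296 ± 13.2 RPKM) and lowest in Cited1+ cells (95.5 ± 7.08 RPKM). Crabp2 overlapped between neighbours over the 3 embryonic groups, at 51.6, 38.4 and 35.2 RPKM in Six2-, Six2+ and Cited1+ cells, though not between Six2- (40.65 RPKM and above) and Cited1+ cells (36.9 RPKM and below). It was apart and lowest in P2 Six2+ cells (9.78 RPKM). Aldh1a1 was highest in Six2- cells (0.649 RPKM), overlapping Cited1+ cells, and had its lowest mean in Six2+ cells. Its highest Six2+ library (0.06372 RPKM) lay just under its lowest P2 Six2+ library (0.06407 RPKM), a gap too small at such levels to set these groups apart. Neighbours overlapped at every step for Rara and Aldh1a3, both highest in Cited1+ and P2 Six2+ cells. Further apart, Rara in Cited1+ cells (14.07 RPKM and above) did not overlap Six2+ (13.28 RPKM and below) or Six2- cells (12.55 RPKM and below). Nor did Aldh1a3 in Cited1+ and P2 Six2+ cells (2.536 RPKM and above) overlap Six2+ cells (1.699 RPKM and below).

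The genes whose log2(RPKM + 1) followed each gene most closely over the 11 libraries were found by Pearson's r for the 6 genes with a mean of at least 5 RPKM. The libraries fall into 4 groups, so r mainly follows the group means. Rarb was closest to Crtap, a collagen-modifying factor (r = 0.995), Lrrc17 (0.991) and Kdelr3 (0.989). Rarg was closest to the formin gene Daam2 (0.993), the tight junction gene Cldn1 (0.993) and the collagen gene Col12a1 (0.991). Crabp1 was closest to Arpc1b (0.987), Dlk1 (0.984) and the macrophage lysozyme gene Lyz2 (0.984), which averaged 0.188 RPKM in Six2+, 29.6 RPKM in Six2-, 1.16 RPKM in P2 Six2+ and 0.659 RPKM in Cited1+ cells.

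Aldh1a2 was closest to the condensin gene Ncaph (r = 0.973), the growth factor gene Mdk (0.967) and the binding protein gene Igfbp4 (0.954). Ncaph spanned a narrow range, with means of 26.8 to 33.6 RPKM, and its r was 0.788 after libraries were scaled to a common total. Mdk and Igfbp4 covered wider ranges, with means of 182 to 408 RPKM and 94.9 to 278 RPKM. Crabp2 was closest to the glycolytic gene Tpi1 (0.968), Mfap4 (0.961) and Aprt (0.961), each lowest in P2 Six2+ cells (60.9, 40.1 and 26.2 RPKM). Rara was closest to Agbl5 (0.931), Bcorl1 (0.926) and Tns2 (0.926).

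The 33 other retinoid genes were listed with earlier results of these data known, and 21 were tested in each comparison. In E16.5 Six2+ cells 5 rose and 9 fell, where 20.5% of all genes tested rose and 18.1% fell. The median difference was -0.26, against 0.12 over all genes tested. Adh1, Tgm2 and Hic1, each below 1 RPKM on average in Six2+ cells, passed the filter only through their level in Six2- cells, and so had to differ. The steps just upstream of the Aldh1a enzymes moved in opposite directions. Rdh10, which oxidises retinol to retinal, averaged 92.4 ± 7.95 RPKM in Six2+ and 19.6 ± 0.460 RPKM in Six2- cells (2.18, SE 0.12, limma adjusted p = 1.68e-06). Dhrs3, which reduces retinal back to retinol, averaged 15.4 ± 1.21 RPKM in Six2+ and 111 ± 23.3 RPKM in Six2- cells (-2.75, SE 0.16, adjusted p = 2.61e-06). Both groups were far apart for both enzymes.

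The alcohol dehydrogenase gene Adh1 also fell (-2.39), at 0.2955 RPKM in Six2+ and 5.98 RPKM in Six2- cells, while the retinol uptake receptor Stra6 did not pass (-0.25). Fabp5, an alternative carrier of retinoic acid to another nuclear receptor, rose (1.61, SE 0.20), at 117 ± 30.6 RPKM in Six2+ and 36.9 ± 4.68 RPKM in Six2- cells. Of the receptor partners, Rxra fell (-1.50; 7.23 ± 0.179 RPKM in Six2+ and 22.4 ± 1.19 RPKM in Six2- cells) and Rxrb rose (0.58; 28.7 RPKM in Six2+ and 18.9 RPKM in Six2- cells). The call on Rxrb was lost without Six2- replicate 1 (adjusted p = 0.0623) or replicate 2 (0.0508). Of 5 coregulators, Nrip1 (-0.74) and Ncoa3 (-0.48) fell, and neither call was firm. Nrip1 lost it without Six2- replicate 1 (adjusted p = 0.0651) or 2 (0.0629), and Ncoa3 lost it when any library but Six2+ replicate 3 was left out (0.0553 to 0.0926). With replicate number as a block, Rdh11 (-0.32, adjusted p = 0.0354), Adh5 (0.38, 0.0148) and Meis2 (-0.26, 0.0452) passed as well.

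**Figure D4:**
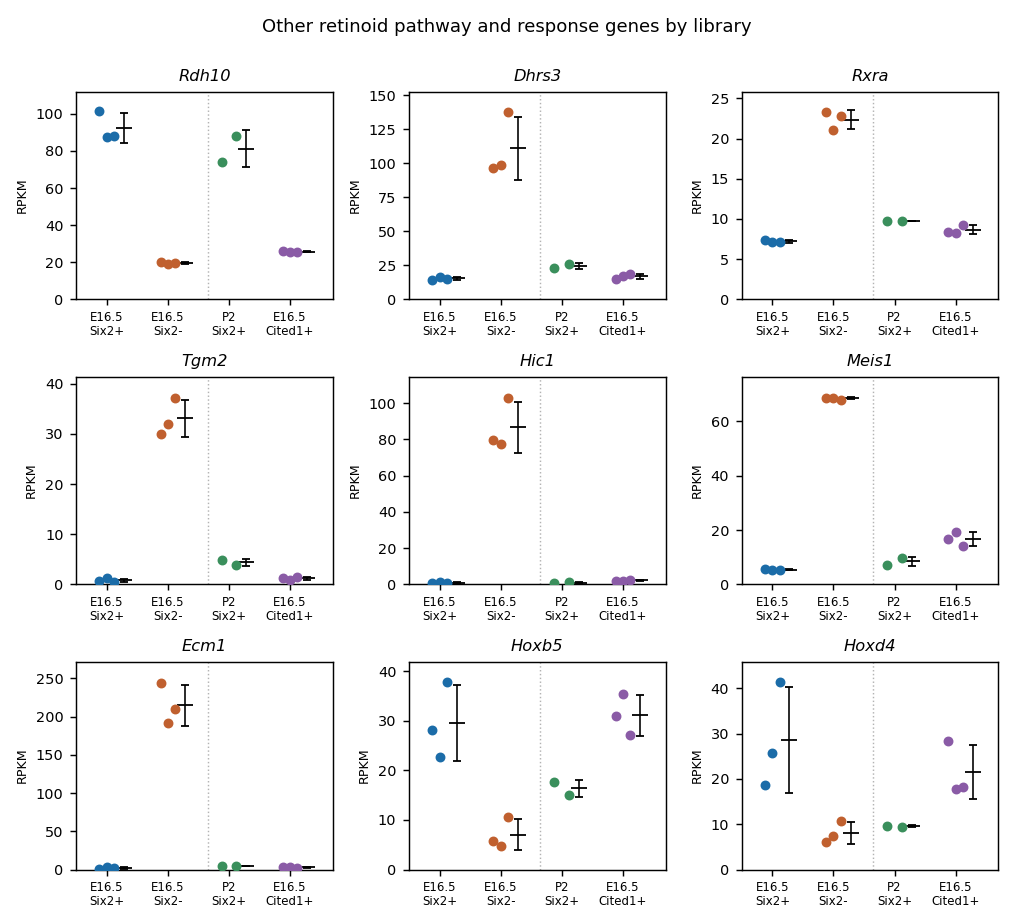
RPKM of 9 other retinoid pathway and response genes in each library (points), with group mean and SD (bars), on linear axes from 0; the dotted line separates the deposited tables. Rdh10 is high in both Six2+ groups (74.3 to 101.5 RPKM), while Dhrs3, Rxra, Tgm2, Hic1, Meis1 and Ecm1 are high in Six2- libraries.

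Of 12 genes known to respond to retinoic acid in some tissue, 7 were tested at E16.5. Tgm2 (transglutaminase), Hic1, the homeobox gene Meis1 and Ecm1, a matrix gene known to respond to retinoic acid in embryonic mouse kidney, fell, and Hoxb5 and Hoxd4 rose. Ecm1 averaged 2.09 ± 1.02 RPKM in Six2+ and 215 ± 26.9 RPKM in Six2- cells (-6.17, SE 0.22), and Hic1 0.978 ± 0.438 RPKM in Six2+ and 86.7 ± 14.0 RPKM in Six2- cells (-5.48, SE 0.19). Tgm2 averaged 0.806 RPKM in Six2+ and 33.1 RPKM in Six2- cells (-4.25, SE 0.17), and Meis1 5.41 RPKM in Six2+ and 68.4 RPKM in Six2- cells (-3.44, SE 0.11). Of these 4 genes Ecm1 and Meis1 did not depend on the Six2- libraries to pass the filter (limma adjusted p = 2.5e-07 and 1.89e-07). Hoxb5 averaged 29.6 ± 7.69 RPKM in Six2+ and 7.04 ± 3.15 RPKM in Six2- cells (1.96, SE 0.27), and Hoxd4 28.6 ± 11.6 RPKM in Six2+ and 8.08 ± 2.35 RPKM in Six2- cells (1.66, SE 0.28). These response genes thus moved in both directions. Stra8 was listed at 0 in every library, and Ret, known mainly from the ureteric bud, was below the filter at 0.161 RPKM in Six2+ and 1.42 RPKM in Six2- cells.

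Between P2 Six2+ and Cited1+ cells, 6 of the 21 tested rose and 9 fell, where 12.7% of all genes tested rose and 16.3% fell (median -0.01 against -0.07 over all genes). Rdh10 rose by 1.61 (SE 0.11, limma adjusted p = 9.31e-05), at 74.3 and 88.2 RPKM in P2 Six2+ libraries and 26.2, 25.4 and 25.8 RPKM in Cited1+ libraries. Rdh10 and Aldh1a2, which act in sequence on retinol and retinal, were thus both higher in P2 Six2+ than in Cited1+ cells. Dhrs3 rose by 0.50 (SE 0.12) and Adh1 fell by 0.91 on the log2 scale.

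Of the receptor partners, Rxrb fell (-0.53, SE 0.11), at 14.6 RPKM in P2 Six2+ and 21.6 RPKM in Cited1+ cells, and Rxra did not pass (0.16, SE 0.11). Nrip1 (0.81) and Ncoa1 (0.51) rose and Ncoa3 fell (-0.51). All 7 response genes tested were called, where 29.0% of all genes were: Tgm2 (1.28) and Ecm1 (0.56) rose, and Hic1 (-0.68), Hoxb5 (-0.88), Hoxd4 (-1.06), Meis1 (-0.90) and Meis2 (-0.58) fell. The list was chosen with earlier results of these data known, so this count is a description only. The calls on Rdh10, Nrip1, Tgm2 and Hoxb5 were kept whichever library was left out. Of the other 11 calls, 10 were lost without P2 replicate 1 (adjusted p = 0.0564 to 0.166), 9 without P2 replicate 2 (0.056 to 0.206), 9 without Cited1+ replicate 1 (0.0655 to 0.135), 5 without Cited1+ replicate 3 (0.0552 to 0.12) and 1, Ncoa3, without Cited1+ replicate 2 (0.0527).

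**Figure D5:**
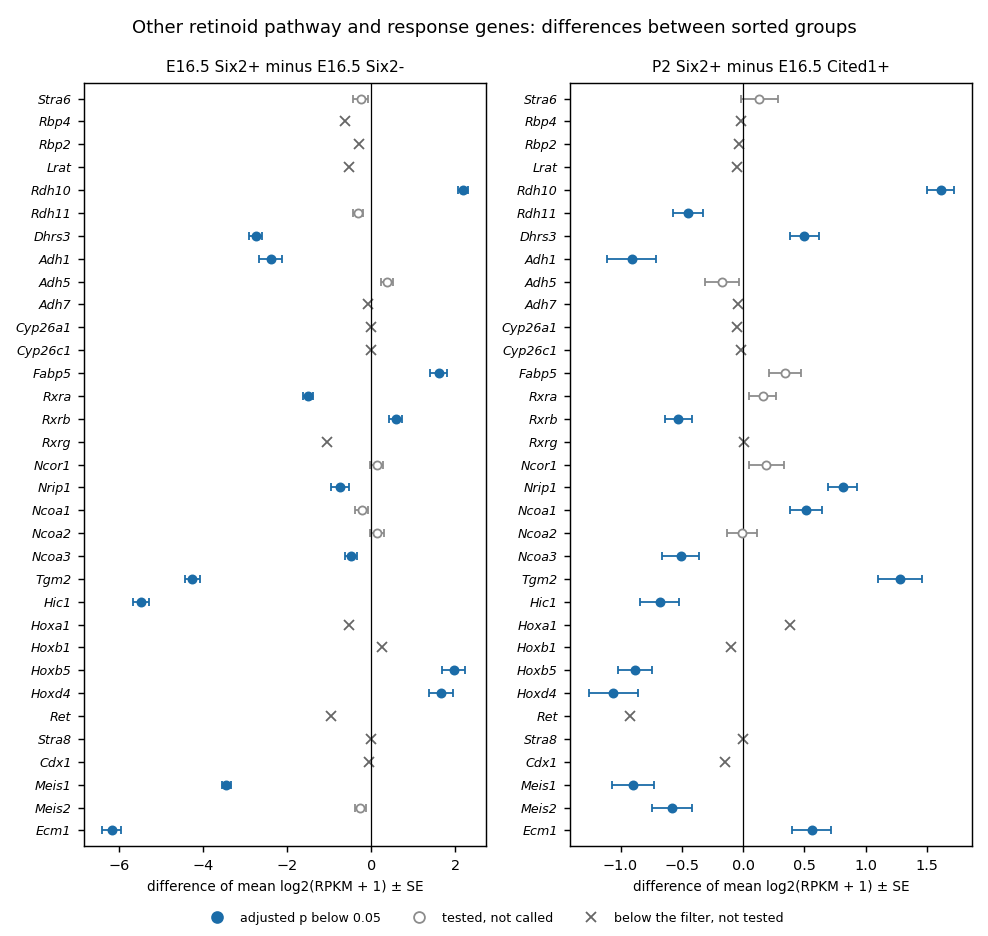
Difference of mean log2(RPKM + 1) with its SE for the 33 other retinoid pathway and response genes, in E16.5 Six2+ minus Six2- cells (left) and P2 Six2+ minus E16.5 Cited1+ cells (right), on separate scales; filled points passed the test, open points did not, and crosses were below the filter. Rdh10 lies to the right in both panels (2.18 and 1.61), and Ecm1 runs furthest to the left at E16.5 (-6.17).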

How the data were processed

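Per the labels' protocols, RNA of sorted cells was extracted with the RNeasy micro kit (Qiagen), and a stranded Kapa kit gave the libraries. The tools bcl2fastq 2.17, TopHat2 and Partek and the build mm10 come from the submitters' processing notes. The counting method and its use of strand are not given in the sources used. The authors deposited 2 tables of 24454 rows, each with a value per gene and library. They call the values TPM, but the deposited values scale as RPKM: they sum to 321882.9 to 433447.3 per library (coefficient of variation 8.95%, against 2.46% once weighted by transcript length). Rows with a date for a symbol (27, holding 0.125% to 0.215% of the sums) were left out. The authors' own fold changes and gene lists were not used.

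Each comparison was fitted within its table on log2(RPKM + 1), using limma 3.58.1 under R 4.3.3. A mean-variance trend was used, and genes averaging less than 1 over the libraries of the fit were left out. Adjusted p-values (Benjamini-Hochberg, all genes of the fit) below 0.05 were called. The fit was also run on simulated data, with changes planted in genes that were not low and with libraries independent of each other. That run does not bear on low genes or on paired libraries. Shares within a gene family were compared by exact permutation over libraries. The planned test was written for TPM and applied as planned, RPKM being no count either.

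Same-numbered Six2+ and Six2- libraries deviated together from their group means (correlations 0.47, 0.455 and 0.404 for numbers 1 to 3). The numbers may thus pair them, though no label says so. The reported fits and permutation tests did not use these numbers, and a block for replicate number was tried as an alternative to the fits. Alternatives changed the pseudocount, filter, scaling, trend, block or libraries. The genes named are the 9 retinoic acid genes, listed pathway and marker genes and, for each of the 9 with a mean of at least 5, its 3 closest by correlation. Some genes of the pathway and marker lists are not reported here. These genes and lists were chosen with earlier results of these data known. Promoter sequences and coordinates are from RefSeq on GRCm38.p6, and no protein sequence was used.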

Additional observations from a re-analysis of the deposited data

How the results depend on the processing

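Of 183 alternatives over the 18 differences of the 9 genes, 170 kept direction and side of the threshold, 10 changed sign on a difference that had not passed, and 3 passed where the reported value had not or had not been tested: Aldh1a2 at E16.5 with rescaling (adjusted p = 0.0494), Aldh1a1 at E16.5 with no filter (0.00312), and Rarg in P2 Six2+ against Cited1+ cells without Cited1+ replicate 2 (0.0468), which made the count of these genes higher in P2 run from 1 to 2 when libraries were left out. Those that changed sign were, at E16.5, Aldh1a3 (0.20 with quantile normalization, -0.31 to 0.29 without single libraries) and Rara (-0.04 rescaled, -0.07 to 0.12), and between P2 Six2+ and Cited1+ cells Rara (0.01 rescaled, -0.21 to 0.06), Aldh1a3 (-0.24 to 0.08) and Crabp1 (-0.08 to 0.41). Among the other retinoid genes, 457 of 541 alternatives kept direction and call, 64 lost the call, 15 gained it and 5 changed sign, none on a called gene: Stra6 (-0.01 to 0.27) and Ncoa2 (0.07 rescaled, 0.04 with quantile normalization, -0.09 to 0.07), both between P2 Six2+ and Cited1+ cells. For P2 Six2+ against Cited1+ cells the main counts of 6 higher and 9 lower among them became 3 and 5 with no filter, 5 lower with a replicate block, and ranged from 3 to 7 and 2 to 8 when libraries were left out. Over all genes at E16.5, 2440 rose (3603 with a replicate block, 2708 with quantile normalization, 1546 with rescaling, 1618 to 2382 without single libraries, the lowest without Six2- replicate 2) and 2149 fell (2632 with a replicate block, 1230 with a filter of 5); the higher share of calls was 53.2%, and 42.5% with rescaling. Between P2 Six2+ and Cited1+ cells, 1512 rose and 1930 fell: 868 and 895 with a replicate block, 1139 lower with no filter, and 788 to 2145 and 791 to 3012 without single libraries, the highest without Cited1+ replicate 2. Leaving out a P2 library leaves 1, assumed to vary like the other group. Same-numbered P2 Six2+ and Cited1+ libraries gave correlations of 0.0415 and -0.0282. The 2 P2 libraries deviate from their mean as mirror images, so these values cannot decide whether the numbers pair those groups. The block changed no call among the 9 genes in either comparison. The share of Aldh1a3 at E16.5 differed by 0.0714 percentage points, from -0.00619 to 0.185 without single libraries, so its direction was not stable. The cause of these changes was not tested. Groups of 2 or 3 libraries limit the precision throughout, and RPKM without read counts gives no interval for single low values such as those of Cyp26b1 and Aldh1a1.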
